A study of Mus musculus with 2 samples.

Results

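The mRNAs described here encode 6 receptors that neurons use to adhere to other cells and to steer their axons. They are L1cam, Chl1, Cntnap2, Robo1, Tenm2 and Aplp1. Their peaks were taken from a list of regions in which RNA immunoprecipitated with a Mov10 antibody was compared with total input RNA. A peak belonged to one of the genes if it shared at least 1 base with an exon of the gene and was listed on the strand opposite the gene. Exons were those of GENCODE M21 on the mouse assembly GRCm38 (mm10). By this rule 17 of the 2296 peaks belonged to the 6 genes, and 768 peaks lay over an exon of any of 559 genes. Of all peaks, 726 lay over exons of the opposite strand alone and 10 over exons of the same strand alone. The strand that the library kit reads is not given in the sources used here, so counting these peaks as mRNA rather than as antisense RNA is an assumption. None of the 17 shared a base with an annotated exon on its own listed strand. The genes were chosen from the enrichment in this same list, so the values below describe them and no test of their enrichment was made.

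Both libraries came from the brains of 28 pooled wild-type (WT) C57bl/6 pups at postnatal day 2 (P2), and neither an engineered allele nor a drug is given for them. One is the Mov10 IP, in which RNA was recovered without cross-linking after immunoprecipitation with the Mov10 antibody, and the other is the total input RNA before immunoprecipitation. There was 1 library of each, so no value has a replicate check. The enrichment ratio of a peak is its share of the aligned reads in the IP over its share in the input. Values in brackets after a ratio are its exact 95% interval from the binomial distribution, which allows for the counting of reads and for nothing else, so it compares the 2 libraries and says nothing of other brains. Of the markers of cell types in brain, peaks over exons were listed for 3 of 8 neuronal genes (Map2, Snap25 and Tubb3), and for 1 of 3 endothelial genes (Cldn5). None was listed for 4 astrocyte and radial glia genes (Slc1a3, Fabp7, Aldoc and Gfap), 4 oligodendrocyte genes, 4 microglia genes or 3 red blood cell genes. A gene on a strand without any listed peak could have none, and how many of these markers lie on such strands was not counted here. Other genes known from glia did have exonic peaks, among them Apoe, Vim, Sparcl1 and Olig1, which were chosen after their values were seen. The list holds peaks only, so levels of RNA outside peaks were not analysed here. The RNA is that of whole brain, so the number of cells that make an mRNA and its level per cell cannot be told apart.

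Mov10 is an RNA helicase that associates with Argonaute proteins and with the fragile X protein Fmrp and takes part in silencing by microRNAs. Growing axons carry adhesion molecules of the immunoglobulin superfamily, which hold axons together in bundles, and guidance receptors, which read attractive or repulsive cues along the path. Other families, such as the teneurins, the contactin-associated proteins and the amyloid precursor proteins, join neurons to each other or organise the membrane of the axon and synapse. All of these families are active in the brain of the newborn mouse, when axon tracts are still growing and synapses are forming.

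Each of the 17 peaks took a larger share of the IP than of the input. The IP reads ranged from 528 to 3774 per peak with a median of 748, and the input reads ranged from 31 to 268 with a median of 82. The ratio ranged from 4.32 to 59.3 with a median of 11.2 (with 0.5 added to each count for medians). Over all 768 exonic peaks the median ratio was 14.5, with quartiles of 8.93 and 23.0, so the median of these receptors was 0.772 times that of the list. With 0.5 added to each count, only the 2 Tenm2 peaks lay above the median of all exonic peaks, with Robo1 exons 21 and 25 (14.4 and 14.5) at it, and 6 of the 17 lay below the lower quartile. A ratio of 10 or more was reached by 9 of the 17 peaks, beside 69.4% of all exonic peaks. The interval of the ratio lay above 1 for 17 of 17 peaks, beside 99.3% of all exonic peaks. The adjusted p that the authors' peak caller gave was at most 0.05 for 17 of 17, beside 90.4% of all exonic peaks. Passing depended on the strand, with 139 of 139 peaks on chromosome 6 minus but 0 of 27 on chromosome 16 plus. The other strands of these genes had 87 of 88 (16 minus), 48 of 48 (11 plus) and 27 of 27 each (X plus, 7 plus). The 17 of 17 is thus no result about these genes.

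**Figure D1:**
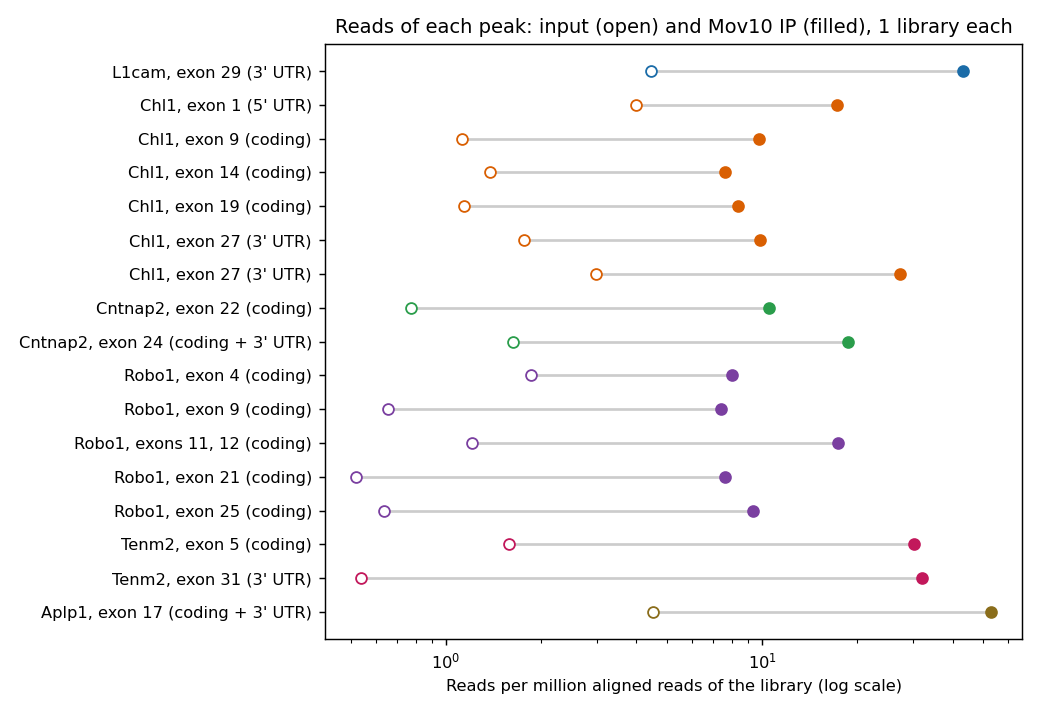
Reads of each of the 17 peaks in RPM, scaled to the aligned reads of the library (log scale), for the input (open points) and the Mov10 IP (filled points), 1 library each. Every filled point lies to the right of its open point, and the input points of Robo1 exon 21 and Tenm2 exon 31 are the farthest left.

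Robo1 is the receptor for the secreted Slit proteins and turns axons away from the midline. It had 5 peaks, whose exonic parts were all coding, over exons 4, 9, 11 with 12, 21 and 25 of the 29 exons of its mRNA of 7563 bases. The peaks also ran into introns, and 121 of the 210 bases of the exon 4 peak and 273 of the 420 bases of the peak over exons 11 and 12 were exonic. The reads summed over the 5 peaks were 3551 in the IP and 291 in the input, a ratio of 10.2 (9.02 to 11.5). The longest exon without a peak was the last, exon 29, of 1748 bases, which holds the 3′ UTR.

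Along the Robo1 mRNA, the first peak stood apart from the others. Exon 4 (chr16:72933211-72933420) held 576 IP reads and 111 input reads, a ratio of 4.33 (3.52 to 5.35). Exon 9 (chr16:72970171-72970380) held 528 IP reads and 39 input reads, a ratio of 11.3 (8.15 to 16.1). The interval of exon 4 did not overlap that of exon 9 or of any later peak. Exons 11 and 12 (chr16:72972271-72972690) held 1235 IP reads and 72 input reads, a ratio of 14.3 (11.3 to 18.4). Exon 21 (chr16:73004401-73004610) held 545 and 31 reads, a ratio of 14.7 (10.2 to 21.8). Exon 25 (chr16:73024351-73024560) held 667 and 38 reads, a ratio of 14.6 (10.5 to 20.9). The intervals of the 4 later peaks overlapped one another, so of 10 pairs of Robo1 peaks the 4 with exon 4 did not overlap.

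The density of input reads was highest at exon 4. Per 1000 bases of peak, exon 4 held 529 input reads, whereas the other 4 peaks held 148 to 186. The IP reads per 1000 bases were 2740 at exon 4 and 2510 to 3180 at the others. Across the 5 peaks the input density thus varied 3.58-fold and the IP density 1.26-fold. Per 1000 exonic bases these spreads were 5.95-fold and 1.82-fold. No peak on this strand was listed below 2050 IP reads per 1000 bases, and the median of the strand was 2640. The list thus bounds the IP density from below but not the input density. How far this sets the narrow IP spread was not tested. The parts of exons 4, 9 and 11 with 12 in the peaks encode residues 181 to 221, 410 to 477 and 526 to 617, before the most hydrophobic stretch of the protein (residues 859 to 877, found as the window of 19 residues with the highest mean hydropathy), and so belong to the part of the receptor outside the cell. The parts of exons 21 and 25 in the peaks encode residues 974 to 1041 and 1326 to 1389 of the part inside the cell. The higher ratios were thus found on both sides of the membrane segment.

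The coding bases of 3 Robo1 peaks are shown so that they can be compared. They are the lowest peak, the peak that crosses a splice junction, and exon 21, which was level with exon 25 as the highest. All sequences here are those of the GENCODE transcripts, written 5′ to 3′ as in the mRNA. The capitals in the sequence of exons 11 and 12 mark the last base of exon 11 and the first base of exon 12.
Robo1 exon 4, ratio 4.33: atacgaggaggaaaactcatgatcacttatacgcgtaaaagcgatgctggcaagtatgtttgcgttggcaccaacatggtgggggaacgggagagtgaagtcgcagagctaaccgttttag
Robo1 exons 11 and 12, ratio 14.3: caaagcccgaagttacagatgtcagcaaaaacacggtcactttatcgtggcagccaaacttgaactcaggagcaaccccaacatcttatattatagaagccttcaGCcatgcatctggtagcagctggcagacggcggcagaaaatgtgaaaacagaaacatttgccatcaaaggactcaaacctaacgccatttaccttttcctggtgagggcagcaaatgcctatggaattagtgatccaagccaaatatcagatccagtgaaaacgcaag
Robo1 exon 21, ratio 14.7: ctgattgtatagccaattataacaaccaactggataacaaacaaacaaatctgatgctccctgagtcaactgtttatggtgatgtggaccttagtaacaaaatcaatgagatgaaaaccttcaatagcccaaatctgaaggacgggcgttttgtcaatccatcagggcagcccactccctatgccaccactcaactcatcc
Exon 4 lies whole within its peak, and 31.4% of its 121 bases are G. Exon 21 has 16.9% G over the 201 bases shown. The exonic parts of the other peaks have 27.7% G (exon 9, ratio 11.3), 20.9% (exons 11 and 12) and 30.3% (exon 25, ratio 14.6). From exon 4 to exon 21 the share of G fell as the ratio rose, but exon 25 broke this order. No relation was tested over so few peaks.

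L1cam and Chl1 are sister molecules of the L1 family, single-pass adhesion molecules with immunoglobulin and fibronectin type III domains that promote the growth and bundling of axons. L1cam had 1 peak of 410 bases (chrX:73854326-73854735), wholly within the 3′ UTR in exon 29, the last exon, at bases 4333 to 4742 of an mRNA of 5113 bases. It held 3088 IP reads and 265 input reads, a ratio of 9.71 (8.57 to 11.1). No part of the L1cam coding sequence had a peak in the list analysed here.

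Chl1 had 6 peaks, the most of the 6 genes, and the lowest summed ratio. The peaks together held 5727 IP reads and 736 input reads, a ratio of 6.49 (6.01 to 7.01), whose interval lies below that of L1cam. They covered both ends of the mRNA of 7562 bases. One peak lay over the first exon in the 5′ UTR, 3 over coding exons 9, 14 and 19 of 27, and 2 over the 3′ UTR in exon 27.

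The 5′ UTR peak of Chl1 (chr6:103510801-103511200) held 1228 IP reads and 237 input reads, and its ratio of 4.32 (3.76 to 4.98) was the lowest of all 17. The peak covers the alternative first exons of several transcripts, of which 82 bases are in the transcript used for numbering. Coding exon 9 (chr6:103675001-103675200) held 700 and 67 reads, a ratio of 8.71 (6.77 to 11.4). Coding exon 14 (chr6:103695401-103695600) held 546 and 82 reads, a ratio of 5.55 (4.39 to 7.09). Among the 3 coding peaks, exon 9 had the highest ratio. Exon 19 (chr6:103706401-103706600) held 599 and 68 reads, a ratio of 7.34 (5.71 to 9.58). The first 3′ UTR peak (chr6:103731001-103731200) held 704 and 105 reads, a ratio of 5.59 (4.55 to 6.93). The second 3′ UTR peak (chr6:103731801-103732400), 600 bases long and the longest of the 17, held 1950 and 177 reads, a ratio of 9.18 (7.87 to 10.8). Of the 15 pairs of Chl1 peaks, 5 had intervals that did not overlap, and each of these pairs set the 5′ UTR peak or the 2 lower peaks of exons 14 and 27 against a higher one.

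As in Robo1, the first peak of Chl1 had the lowest ratio and, per base of peak, the densest input, 592 reads per 1000 bases beside 295 to 525 in the other 5. Per 1000 exonic bases the input was densest at exon 14 instead, with 804 reads beside 630 at the first peak. The IP density was 3070 reads per 1000 bases beside 2730 to 3520. The parts of the coding exons in the peaks encode residues 277 to 329, 534 to 568 and 734 to 796, all before the hydrophobic window at residues 1085 to 1103 and thus in the part outside the cell. One more peak lay inside the Chl1 gene on the same strand but over no GENCODE exon (chr6:103649201-103649400). It held 585 IP reads and 247 input reads, a ratio of 1.97 (1.70 to 2.30), and had the third lowest ratio of the 139 peaks on the minus strand of chromosome 6. It was not counted as a peak of Chl1. RefSeq exons were not searched, so whether this peak lies over one is not known. The coding peak with the highest ratio is shown, with no capitals, since it holds no feature that was searched for.
Chl1 exon 9, ratio 8.71: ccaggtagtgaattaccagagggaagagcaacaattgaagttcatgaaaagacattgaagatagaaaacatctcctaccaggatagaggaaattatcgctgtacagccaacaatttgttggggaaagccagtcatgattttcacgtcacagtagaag

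Cntnap2 encodes Caspr2, a member of the neurexin superfamily that gathers potassium channels beside the nodes of Ranvier. It had 2 peaks, which together held 2088 IP reads and 143 input reads, a ratio of 12.2 (10.3 to 14.5). The exon 22 peak (chr6:47271201-47271400), whose coding bases encode residues 1180 to 1240, held 748 IP reads and 46 input reads, a ratio of 13.6 (10.1 to 18.7). The second peak, in exon 24 (chr6:47298401-47298800), held 1340 and 97 reads, a ratio of 11.5 (9.37 to 14.3). The intervals overlapped, and the densities of IP and input reads differed by 1.12-fold and 1.05-fold between the peaks.

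The exon 24 peak covers the end of the coding sequence, 200 bases from residue 1267 to the stop codon, and 186 bases of the 3′ UTR. These codons hold most of the hydrophobic window (residues 1264 to 1282) and the 50 residues that follow it, the short tail inside the cell. Exon 24 is 5799 bases long, and 6.66% of it lay in the peak, so the rest of the 3′ UTR had no peak in the list analysed here. The coding part is shown because one peak holds the membrane segment, the tail and the stop codon. Capitals mark the codons of the hydrophobic window and the stop codon.
Cntnap2 exon 24, ratio 11.5: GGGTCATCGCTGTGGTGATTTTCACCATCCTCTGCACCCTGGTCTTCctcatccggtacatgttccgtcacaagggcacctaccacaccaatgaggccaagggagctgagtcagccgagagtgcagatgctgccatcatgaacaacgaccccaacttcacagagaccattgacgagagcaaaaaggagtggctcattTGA

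Tenm2 is a teneurin, a large protein that binds latrophilins on the facing cell across the synapse. It had the highest ratios of the 6 genes. Its 2 peaks together held 4435 IP reads and 126 input reads, a ratio of 29.3 (24.6 to 35.3), whose interval lay above that of each other gene. Exon 5 (chr11:36385001-36385200) held 2157 IP reads and 94 input reads, a ratio of 19.1 (15.6 to 23.8). The 3′ UTR peak in exon 31 (chr11:36007601-36007800) held 2278 and 32 reads, a ratio of 59.3 (41.9 to 87.0), the highest of all 17. The intervals of the 2 peaks did not overlap. Per base of peak, the IP density differed by 1.06-fold between them and the input density by 2.94-fold. Per exonic base, the IP density was 2.31-fold and the input density 7.16-fold higher at exon 5.

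Of the 200 bases of the exon 5 peak, 82 are exonic, the smallest part of any of the 17 peaks, and without this peak the Tenm2 ratio is 59.3. These 82 bases, 39.0% of exon 5, encode residues 211 to 238, before the hydrophobic window at residues 377 to 395. Teneurins have their amino terminus inside the cell, so these codons belong to the inner part. They are shown, in lower case throughout, because they are all that places this peak in Tenm2.
Tenm2 exon 5, ratio 19.1: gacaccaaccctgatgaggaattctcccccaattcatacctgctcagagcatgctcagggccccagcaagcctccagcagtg

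Aplp1 is a membrane protein of the amyloid precursor family that is found at synapses of neurons. It had 1 peak of 200 bases in its last exon, exon 17 (chr7:30435201-30435400), with 99 coding bases and 92 bases of the 3′ UTR. The peak held 3774 IP reads and 268 input reads, the most of any of the 17 in both libraries, and its ratio was 11.7 (10.4 to 13.3). Its mRNA of 2343 bases is the shortest of the 6. The coding part encodes residues 623 to 654 at the end of the tail inside the cell, after the hydrophobic window at residues 589 to 607. It holds the NPTY motif (residues 644 to 647), which in proteins of this family binds adaptors with phosphotyrosine-binding domains. It is shown because, as in Cntnap2, the peak spans the stop codon. Capitals mark the 4 codons of NPTY and the stop codon.
Aplp1 exon 17, ratio 11.7: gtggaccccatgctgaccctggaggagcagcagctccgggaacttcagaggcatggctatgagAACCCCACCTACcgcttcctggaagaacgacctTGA

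**Figure D2:**
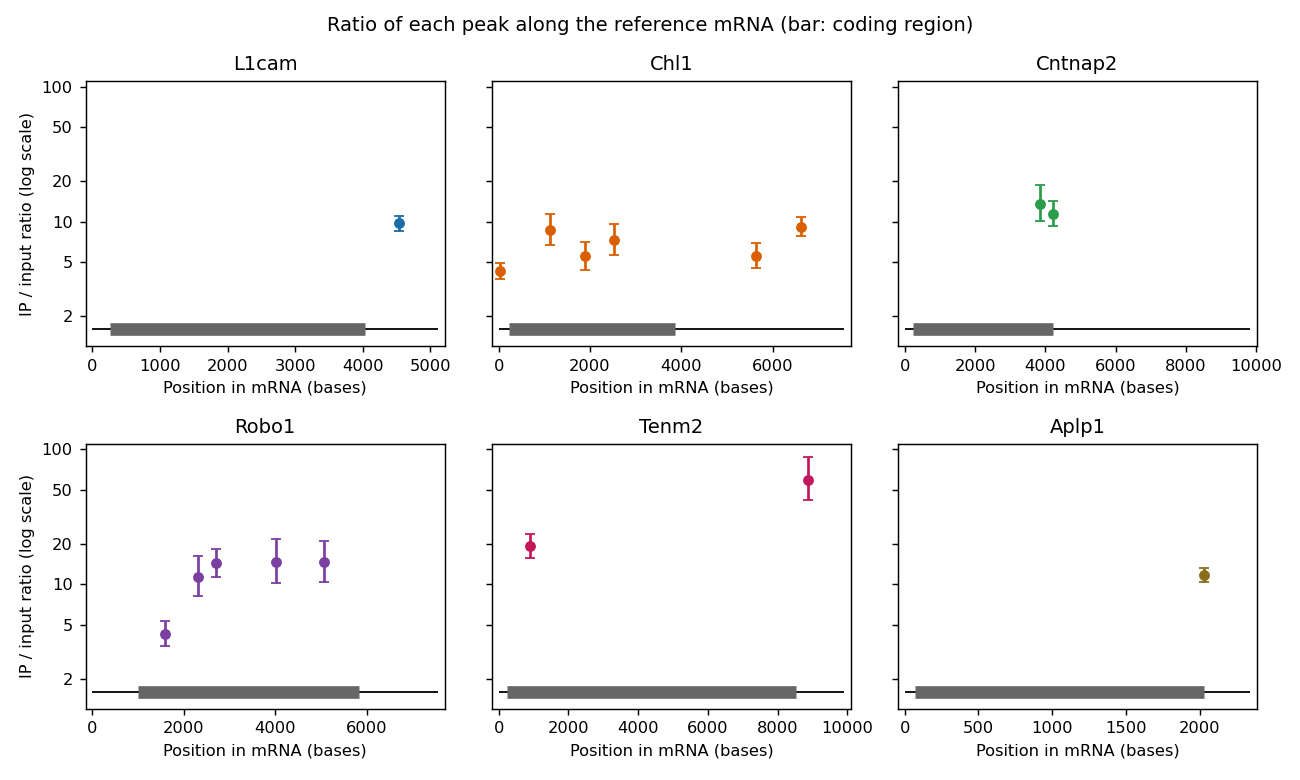
Ratio of IP to input (log scale) of each peak with its 95% interval, against the middle of its exonic part in the reference mRNA of each gene (bases from the 5′ end). The grey bar is the coding region. The first peaks of Chl1 and Robo1 have ratios of 4.32 and 4.33, and the last Tenm2 peak reaches 59.3.

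In order of the summed ratio, Tenm2 (29.3) stood above Cntnap2 (12.2), Aplp1 (11.7), Robo1 (10.2) and L1cam (9.71), and Chl1 (6.49) stood below. The intervals of neighbours in this order overlapped from Cntnap2 to L1cam, so these 4 genes could not be ordered at this depth. Among the 559 genes with an exonic peak, Tenm2 had rank 104 by ratio and Chl1 rank 462, and the median ratio over the 559 was 14.6. By summed IP reads Chl1 had the highest rank of the 6, 105, and Cntnap2 the lowest, 312. These sums hold listed peaks only, and the lowest IP count listed ranged from 226 to 20339 between chromosome strands. Ranks by IP reads therefore cannot be compared across strands.

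Within the 4 genes with more than 1 peak, the ratio varied 3.39-fold in Robo1, 3.10-fold in Tenm2, 2.13-fold in Chl1 and 1.18-fold in Cntnap2. Over all 146 protein-coding genes with 2 or more exonic peaks the median spread was 1.71-fold, and 13% had a spread over 3-fold. The spread is the highest over the lowest ratio and tends to grow with the number of peaks. The 146 genes were not matched for that number or for read counts. Per base of peak, the input density varied more than the IP density in 3 of the 4 genes, all but Cntnap2, and in 84.2% of the 146. Over the 146 genes the median spread was 1.17-fold for the IP density and 1.71-fold for the input density. The lowest IP density listed on each strand bounds the first of these and not the second. The peak nearest the 3′ end had a higher ratio than the peak nearest the 5′ end in 3 of the 4 genes, beside 59.6% of the 146.

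By place in the mRNA, 10 of the 17 peaks were wholly coding in their exonic part, 4 were wholly in a 3′ UTR, 1 in a 5′ UTR and 2 ran across a stop codon. The 12 peaks whose exonic part was mostly coding had a median ratio of 11.6, and the 379 such peaks of all protein-coding genes had a median of 14.8. The 5 mostly untranslated peaks had a median of 9.18 and a range of 4.32 to 59.3, beside a median of 14.1 over 276 such peaks. Tenm2 and Chl1 set that range. The low end was not particular to untranslated sequence, since the coding peak of Robo1 exon 4 had a ratio of 4.33 (3.52 to 5.35).

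The bases of the peaks varied as widely. The share of G and C ranged from 34.0% in the first 3′ UTR peak of Chl1 to 61.8% in Aplp1, with a median of 50.3% beside 53.3% over all exonic peaks. The 5 mostly untranslated peaks had a median of 37.2% beside 52.7% for all such peaks. The Tenm2 3′ UTR peak, with the highest ratio, held 36.5% G and C. The pattern of 4 runs of 2 or more G, parted by 1 to 7 bases that begin and end with another base, a form that can fold into a G-quadruplex, was found on the mRNA strand in 3 of the 17 (L1cam, Cntnap2 exon 24 and Robo1 exon 9), beside 34.5% of all exonic peaks. With runs of 3 or more G the pattern was in 0 of 17 and in 1.56% of all. A match is a description of the letters and not a site of binding, and the peaks differ in length.

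Of motifs known from 3′ UTRs, ATTTA was in 4 of the 17 peaks, beside 13.8% of all exonic peaks. The matches were in the 3′ UTR peaks of L1cam and Chl1 and in the coding peak of Robo1 exons 11 and 12. TGTANATA, the form bound by Pumilio proteins, was in 1 of 17, beside 1.69% of all exonic peaks. Both were searched on the mRNA strand. The TGTANATA match lies in the second 3′ UTR peak of Chl1, 2642 bases after the stop codon. It is shown in capitals with the bases around it, a stretch of 28 bases in all (chr6:103731967-103731994).
Chl1 exon 27: tgtaagtgatTGTATATAatctcaagga

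Matches to the seeds of 8 microRNAs of the brain (let-7b-5p, miR-124-3p, miR-9-5p, miR-128-3p, miR-125b-5p, miR-26a-5p, miR-138-5p and miR-181a-5p) were sought in the 3′ UTR bases of the peaks, and RefSeq sequences on GRCm38 were found for 7 of the 8. A match is 7 bases complementary to bases 2 to 8 of the microRNA, namely CTACCTC for let-7b-5p, ACCAAAG for miR-9-5p, CACTGTG for miR-128-3p, CTCAGGG for miR-125b-5p, TACTTGA for miR-26a-5p, CACCAGC for miR-138-5p and TGAATGT for miR-181a-5p. None of the 6 peaks with at least 50 bases of 3′ UTR (1 each of L1cam, Cntnap2, Tenm2 and Aplp1 and 2 of Chl1) held a match to any of the 7. Over the 217 such peaks of all genes, from 0.461% to 5.53% held a match to a given seed, the most for miR-138-5p. These letters are absent from the windows of these peaks only, and the rest of each 3′ UTR was not searched.

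No exonic part of the 17 peaks matched a transcript of another gene at 95% identity or more over 100 bases (or over its length where shorter), and copies elsewhere in the genome were not sought. No exon of another gene on the same strand shared any of the 17 peaks.

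**Figure D3:**
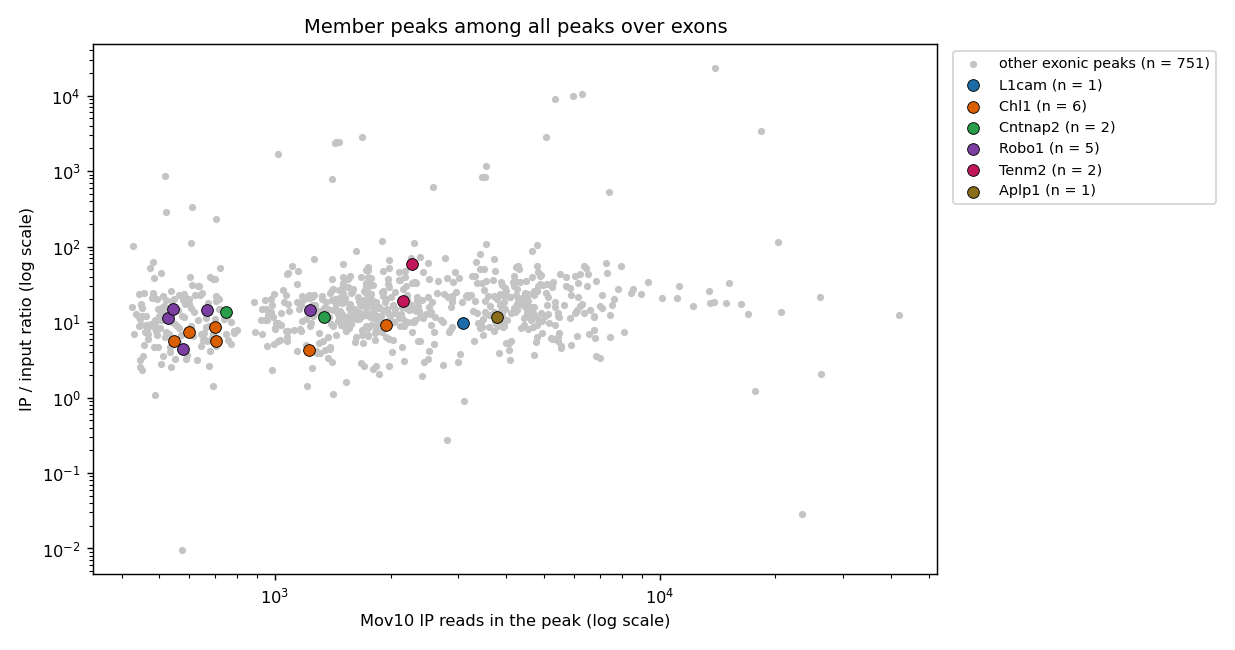
Ratio of IP to input against Mov10 IP reads, both on log scales, for the 17 peaks of the 6 genes (coloured) and the other 751 exonic peaks (grey). The coloured points lie within the grey cloud, and the Tenm2 point at 59.3 is the highest of them.

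The number of peaks per gene cannot be compared across chromosome strands, because the lowest number of IP reads listed differed between them. The caller was run on each strand, and the list holds peaks of 31 of 42 strands of the numbered and sex chromosomes, with the lowest IP count on a strand ranging from 226 to 20339. The 3 genes with the most small peaks, Chl1, Cntnap2 and Robo1, lie on strands where peaks down to 425 and 431 IP reads were listed. On the strand of Tenm2 the lowest count was 1653, on that of L1cam 1375 and on that of Aplp1 3691. A peak with 748 IP reads, the median of the 17, would exceed the lowest count on 3 of the 31 strands. Numbers of peaks can therefore be set side by side only for Chl1 and Cntnap2, which share a strand.

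Against the other exonic peaks of their own strand, the members took different places. On the minus strand of chromosome 6 the median ratio of 116 other exonic peaks was 11.1, beside 6.43 for the 6 Chl1 peaks and 12.4 for the 2 Cntnap2 peaks. On the minus strand of chromosome 16 the median of 81 others was 9.97, beside 14.2 for the 5 Robo1 peaks. The plus strand of chromosome 11 had a median of 16.8 over 45 others, beside 38.7 for the 2 Tenm2 peaks. The single peaks of L1cam and Aplp1 lay below the medians of their strands, 14.4 over 24 others and 22.8 over 26 others. Robo1, below the median of all exonic peaks, was thus above that of its own strand.

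**Figure D4:**
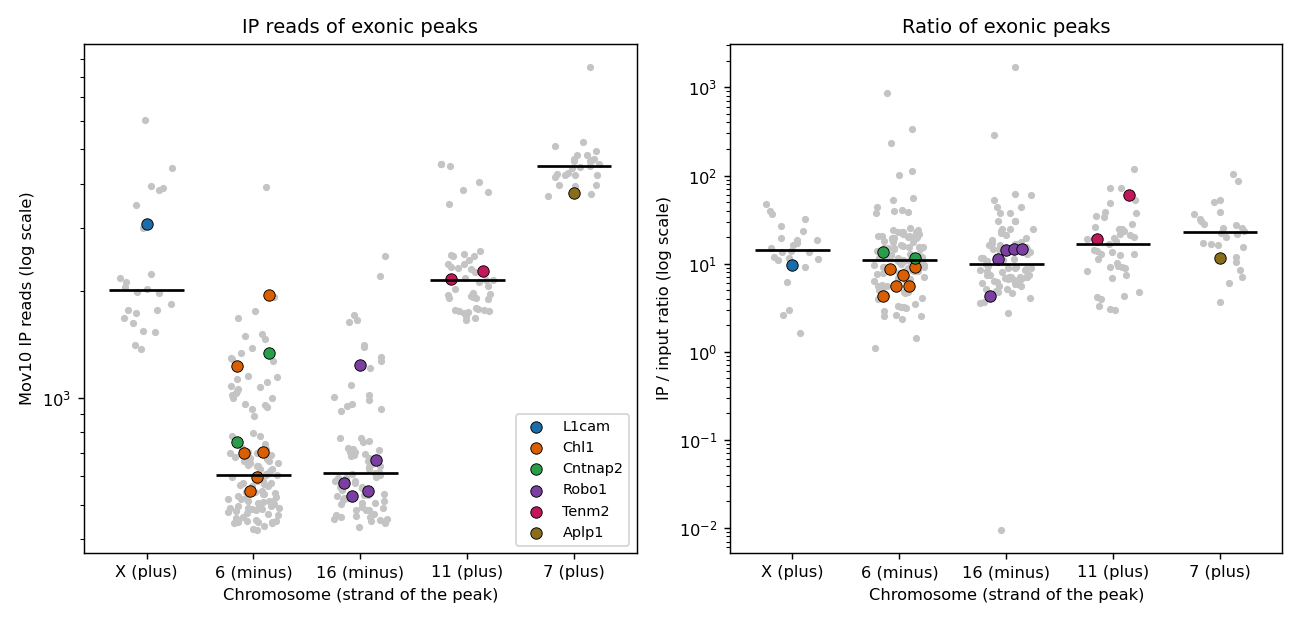
Mov10 IP reads (left) and ratio of IP to input (right), both on log scales, of the exonic peaks on the 5 chromosome strands that hold the 6 genes. Grey points are other exonic peaks, black lines their medians, and coloured points the members. Chl1 lies below the line of its strand in the right panel and Tenm2 above.

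The empirical false discovery rate (eFDR) of the caller also differed by strand. It was at most 0.05 for 13 of the 17 peaks, beside 36.8% of all exonic peaks. The 13 are the peaks of Chl1, Cntnap2 and Robo1. On their strands nearly every peak reached it, 139 of 139 on chromosome 6 minus and 87 of 88 on chromosome 16 minus. The count of 13 is thus no result about these genes. The eFDR was 0.227 for both Tenm2 peaks, 0.148 for L1cam and 0.667 for Aplp1, and on each of these 3 strands no peak reached 0.05.

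The other genes of these pathways were taken from 10 lists of 145 adhesion and guidance genes, the 6 receptors included. An exonic peak with an adjusted p of at most 0.05 was listed for 12 of the 145, beside 1.83% of the 21910 protein-coding genes of the nuclear chromosomes. An exonic peak of any adjusted p was listed for 15, beside 2.05%. The 6 receptors were chosen for having peaks, so both counts hold them by choice, and 9 of the other 139 genes had an exonic peak. These 9 had summed ratios of 5.60 to 15.3 with a median of 10.7, and the median of the 6 receptors was 10.9. Of the 145 genes, 98 lie on a chromosome strand for which the list holds any peak, as do 16580 of the 21910 protein-coding genes, and the other 47 lie on strands with no listed peak.

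Among relatives of the 6 receptors, Robo2, the second Slit receptor, had 1 coding peak with 1231 IP reads and 117 input reads, a ratio of 8.77 (7.25 to 10.7). App, the amyloid precursor protein, had 2 peaks with 2657 and 239 reads in all, a ratio of 9.27 (8.12 to 10.6). Cadm2, an immunoglobulin adhesion molecule of synapses, had 1 peak with 1075 and 160 reads, a ratio of 5.60 (4.74 to 6.65). These 3 genes lie on the plus strand of chromosome 16 in the list, where the adjusted p was over 0.05 for all 27 peaks, and theirs was 1. Robo1, whose peaks lie on the other strand of this chromosome, had a summed ratio of 10.2.

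Ncam2, an immunoglobulin adhesion molecule of olfactory axons, had 2 peaks with 1028 and 80 reads, a ratio of 10.7 (8.53 to 13.6). Ptprz1, a receptor phosphatase that binds contactins, had 6 peaks with 8575 and 929 reads, a ratio of 7.69 (7.19 to 8.24), on the same strand as Chl1 and with as many peaks. Nrxn2, a neurexin of the presynaptic membrane, had 2 peaks with 10372 and 783 reads, a ratio of 11.0 (10.3 to 11.9). The remaining 3 are part of synapses and of cell junctions. Lrrtm4, a postsynaptic partner of presynaptic receptors, had a ratio of 15.3 (10.4 to 23.5) over 1 peak. Ctnnd2, a catenin of the synapse, had a ratio of 14.8 (12.2 to 18.1) over 1 peak. Cdh2, the neural cadherin, had a ratio of 11.5 (9.59 to 13.8) over 1 peak.

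No exonic peak was listed for any of 31 semaphorins, plexins and neuropilins, 22 ephrins and Eph receptors, or 11 netrins and netrin receptors, of which 19, 13 and 8 lie on strands with peaks. Of all protein-coding genes on such strands 2.71% had an exonic peak, so counts of 0 in lists of this size are no result about these families. Robo1 and Robo2 were 2 of 7 Slits and Robo receptors, Tenm2 was 1 of 10 teneurins, latrophilins and Flrt proteins, and Cntnap2 was 1 of 13 contactins and Caspr proteins. Aplp1 and App were 2 of the 3 members of the amyloid precursor family. L1cam and Chl1 were 2 of the 4 genes with a peak among 21 immunoglobulin adhesion molecules, beside Cadm2 and Ncam2.

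By the likeness of the summed log2 ratio among genes with IP reads within 1.5-fold, the gene nearest to each receptor was Rps24 for L1cam (ratio 9.78), Eef1b2 for Chl1 (6.44), Dyrk1a for Cntnap2 (12.2), Tsc22d1 for Robo1 (10.2), Arl3 for Tenm2 (29.3) and Eif1 for Aplp1 (11.7). The differences in log2 ratio were 0.0018 to 0.011, over 1 library of each kind and 124 to 193 candidate genes. Rps24, Eef1b2 and Eif1 encode a ribosomal protein and factors of translation, whereas Dyrk1a, Tsc22d1 and Arl3 do not. The interval of Dyrk1a, for one, was 10.1 to 14.9, far wider than these differences. Which gene is nearest could thus not be told at this depth.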

How the data were processed

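RNA of the Mov10 IP and of the input was sequenced from P2 brain, 1 library each. Per the labels and the methods of the study, the authors called bases with bcl2fastq 2.17.1.14, aligned reads with TopHat2 2.1.1 to unmasked mm10, merged the alignments with samtools 1.3 and sorted them with novosort 3.02, and ran RIPSeeker 3.3 on each strand, with reads of several alignments assigned to a single place. The deposited list gives whole read counts of the IP and the input for each peak, not scaled to library size, and the caller's score, p-value, adjusted p and eFDR, all used as deposited. No member peak had 0 input reads.

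Ratios were scaled by the aligned reads the study states, 71522027 and 59620379, since the listed peaks hold only part of each library. Intervals are exact conditional binomial at 95%, and medians use a pseudocount of 0.5. Exons, transcripts and sequences are from GENCODE M21. The reference transcript of a gene is the protein-coding one that covers the most peak bases. Copies were sought with BLAST+ 2.17.0. Other work used Python 3.11.15, numpy 2.4.6, pandas 2.3.3, scipy 1.17.1, biopython 1.88 and matplotlib 3.10.9. Intervals were checked on counts simulated from the Poisson model that they assume. A lookup of overlaps was run on regions placed at the ends of annotated exons. It kept genes of the same strand, so it did not test the opposite-strand rule.

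The members, gene lists and motifs were chosen with earlier results of these data known. Beside the members, the text names each list gene with an exonic peak and, for each member, the gene nearest in log2 ratio among those within 1.5-fold of its IP reads. Alternatives were other library totals, pseudocounts, thresholds and overlap rules. The irrelevant IP was not analysed here.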

Additional observations from a re-analysis of the deposited data

How the results depend on the processing

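With reads scaled by uniquely aligned reads, every ratio is multiplied by 0.613, and the median ratio of the 17 peaks becomes 6.84. It was 11.0 with a pseudocount of 1, 10.4 with at least 50% of the peak in exons and 11.3 with peaks within 1000 bases merged. The number of list genes with a passing exonic peak, 12, was also 12 at an adjusted p of 0.01 and with at least 50% of the peak in exons, but 7 at an eFDR of at most 0.05. With any adjusted p, a choice added after the data were seen, it was 15. The summed Tenm2 ratio becomes 59.3 when exon 5 is left out for having under 50% of its bases in exons. The number of member peaks that pass was 17 at an adjusted p of 0.01 and 13 by the eFDR. The member median over that of all exonic peaks was 0.770 to 0.792 under the alternatives. Of the 25 alternatives computed, 16 were counted as the same, 9 as moved and 0 as reversed. A common factor, a small pseudocount or another threshold could hardly reverse a direction, so the last count is no test of robustness.

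No paired analysis was possible because each group has 1 library, and no replicate was left out. The alternative with RefSeq exons only was not run. Intervals hold counting error only, with PCR copies of a molecule counted as separate reads, and do not cover the spread between brains. The list holds peaks alone, so mRNA regions without a peak have no value. The input counts of 31 to 46 behind the highest ratios of Robo1, Cntnap2 and Tenm2 give the widest intervals.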
